A study of Mus musculus with 6 samples.

Results

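Mouse bone marrow with leukaemia labelled Hoxa9-Meis1 (HM) was set against mouse bone marrow with leukaemia labelled MLL-AF9 (MA9), both given PBS, by droplet sequencing of single-cell 3′ RNA tags. Each side is 1 library of the 6 in the series. The first is labelled HM, Shp-1 f/f, PBS, and its reference is labelled MA9, Shp-1 f/f, PBS. Shp-1 is the tyrosine phosphatase encoded by Ptpn6, and both libraries are labelled as having its floxed allele, not the deleted one. The 4 other libraries are labelled HM Shp-1 f/f with AraC + Dox (cytarabine and doxorubicin), MA9 Shp-1 f/f with AraC + Dox, MA9 Shp-1 Δ/Δ (deleted) with PBS, and MA9 Shp-1 Δ/Δ with AraC + Dox. Per the labels' protocols, the oncogenes were put into mouse embryonic stem cells to make the leukaemic mice, marrow was flushed and red cells were lysed. No label used here gives age, strain, promoter or the number of mice behind a library. Barcodes were kept if they held 500 or more genes and if mitochondrial genes took no more than 10% of their UMIs (unique molecular identifiers, one for each counted RNA tag). These were 2755 cells of the HM library and 8614 of the MA9 library, 11369 of the 44672 kept in the series and of 58337 barcodes deposited.

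MLL-AF9 is a fusion of a chromatin regulator with a partner of the transcription elongation machinery, and it is known to keep the Hoxa cluster and its cofactor Meis1 switched on in myeloid progenitors. Forced expression of Hoxa9 and Meis1 is the textbook shortcut past the fusion, since the pair alone can transform such progenitors. In both kinds of leukaemia the blasts sit in a marrow that also makes normal neutrophils and monocytes. Neutrophils pass through a promyelocyte stage that makes primary granules, a later stage that makes secondary and tertiary granules, and a mature stage marked by migration and alarm genes. Interferon-stimulated genes can be induced in any of these cells.

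The libraries differ in more than the model. The HM library held 12474 barcodes and 29347365 UMIs, of which 22.1% of barcodes were kept, and 74.7% lay over the mitochondrial limit. The MA9 library held 9090 barcodes and 65640410 UMIs, of which 94.8% of barcodes were kept and 1.83% lay over that limit. Kept cells had a median of 4021 UMIs and 1111 genes in HM, against 6675 UMIs and 2191 genes in MA9. The HM matrix lists 32285 features and barcodes of 17 bases, and the MA9 matrix 31053 features and barcodes of 16 bases. They share 29814 gene symbols and no barcode. The comparison has 1 library on each side, so no p-value is given, and a fit over all 6 libraries, which differ in drug and Shp-1 label too, was not run. Model, processing and cell loss cannot be told apart. All intervals are exact 95% intervals that cover counting error only, a count of 0 is given with a floor of 3 counts, and a fold of 2 is a rule of size.

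The genes that name the HM model were low in the library labelled HM. Hoxa9 (minus strand of chromosome 6, 52223100 to 52231089, GRCm38) had a level of 12.4 CPM (UMIs per 1000000 over the shared genes) in HM PBS and 7.41 CPM in HM AraC + Dox. It stood at 211 CPM in MA9 f/f PBS and 203 CPM in MA9 f/f AraC + Dox. Ptpn6 goes against 2 Shp-1 labels among the other MA9 libraries, with values given further on. The MA9 libraries labelled Δ/Δ held 173 CPM with PBS and 210 CPM with AraC + Dox. The HM PBS level was 17.1-fold lower than the MA9 f/f PBS level, a log2 ratio of -4.10 (-4.31 to -3.89). Meis1 (chromosome 11, 18879817 to 19018985, minus strand) stood at 2.20 and 2.496 CPM in the HM libraries, against 78.5 to 147 CPM in the 4 MA9 libraries, with a log2 ratio of -5.54 (-6.08 to -5.05) between the PBS libraries. For both genes the 2 HM libraries lay below all 4 MA9 libraries, as they did for 53.2% of all genes at 20 CPM. A 3′ tag outside an introduced coding sequence checks nothing about it, and the labels do not say whether the introduced Hoxa9 and Meis1 carry the counted 3′ ends. HM therefore stands below for the library labelled HM.

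The rest of the Hoxa cluster followed the same order. Hoxa10 had 0 UMIs in HM PBS and 70.4 CPM in MA9 f/f PBS, at least 352-fold lower at a floor of 3 counts in the HM library. Hoxa5 had 1 UMI in HM PBS (0.0668 CPM) and 50.3 CPM in MA9 f/f PBS, a log2 ratio of -9.56 (-14.86 to -7.08). Hoxa7 had 3 UMIs (0.200 CPM) in HM PBS and 73.0 CPM in MA9 f/f PBS, a log2 ratio of -8.51 (-10.79 to -6.96). In the HM AraC + Dox library these 3 genes stood at 0.326, 1.29 and 4.11 CPM, and none of the 4 MA9 libraries held less than 33.3 CPM of any of them. Some genes of this programme outside the cluster, though not all, were also lower in HM PBS than in MA9 f/f PBS. Mecom, which encodes the transcription factor Evi1, had 0.0668 against 41.6 CPM. Eya1, a phosphatase that acts as a transcriptional co-activator, had 0.401 against 92.1 CPM.

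**Figure D1:**
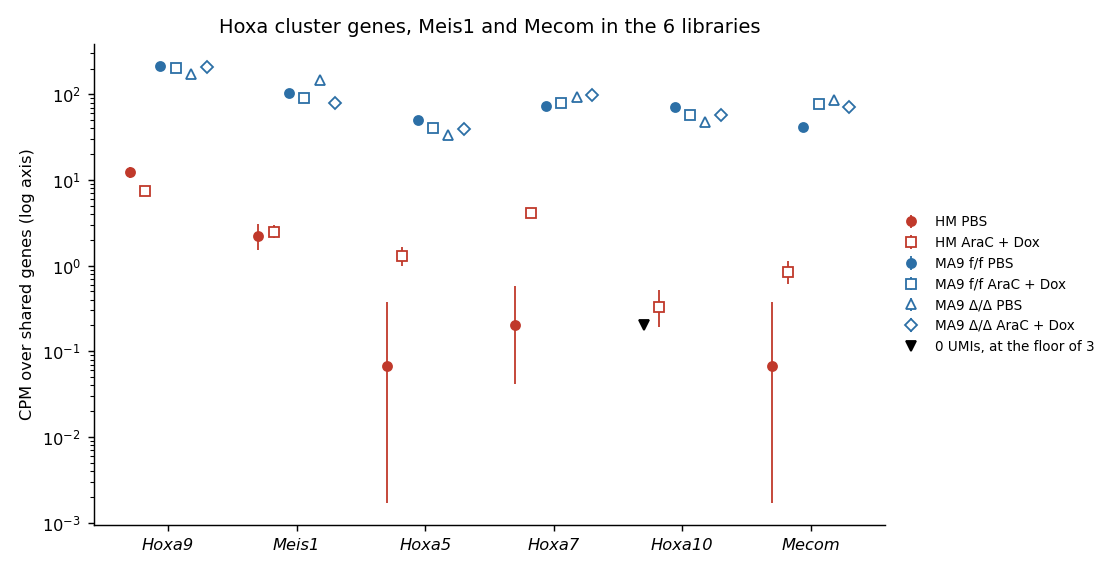
CPM (log axis) of Hoxa9, Meis1, Hoxa5, Hoxa7, Hoxa10 and Mecom in each of the 6 libraries, HM in red and MA9 in blue, with exact 95% counting intervals; the black triangle marks 0 UMIs drawn at the floor of 3 counts. For each gene both HM libraries lie below all 4 MA9 libraries, as they do for 53.2% of all genes at 20 CPM.

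Of 26 genes listed for the HOX, MEIS and PBX programme, 18 reached 5 CPM in either PBS library. Their median log2 ratio was -4.41, against -0.69 over all 9178 genes at that level, with 13 lower and 1 higher in HM by 2-fold or more. The 1 higher member had a log2 ratio of 3.25, and 4 members lay within 2-fold. Over all genes at 5 CPM, 34.7% were lower and 8.37% higher by that much. Both HM libraries lay below all 4 MA9 libraries for 16 of the 18, against 55.9% of all genes at 5 CPM. Members of the PBX family, cofactors of HOX proteins, were named after their values were seen. Pbx3 stood at 3.94 CPM in HM PBS against 50.04 CPM in MA9 f/f PBS, and Pbx2 at 43.2 against 45.3 CPM.

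The split held inside the cell classes. Within neutrophil-like cells, Hoxa9 stood at 3.45 CPM (29 UMIs in 1973 cells) in HM, against 175 CPM (2975 UMIs in 2946 cells) in MA9. Within promyelocyte-like cells it stood at 7.19 CPM in HM, against 262 CPM in MA9. Monocyte-like cells had 39.8 CPM in HM, against 200 CPM in MA9, so among the 3 myeloid classes of HM the level was highest here. The HM cluster of that name had 8 of 9 monocyte markers up. It also had 4 dendritic, 2 promyelocyte, 2 stem and progenitor and 2 B cell markers up, so its identity is mixed. Erythroid-like cells of HM had 48.7 CPM (31.2 to 72.4, 24 UMIs in 97 cells). Hoxa10 had 0 UMIs in each of the 5 HM classes, including 222 monocyte-like cells, while MA9 neutrophil-like, monocyte-like and promyelocyte-like cells had 63.9, 59.4 and 87.6 CPM. Among the MA9 classes Hoxa9 was lowest in T cell-like cells (17.2 CPM) and B cell-like cells (34.2 CPM), followed by erythroid-like cells (97.6 CPM). With every cell thinned to 2000 UMIs, 1.43% of HM cells (0.991% to 1.99%) and 31.9% of MA9 cells (30.9% to 33.0%) had a Hoxa9 UMI. Thinning left out 375 HM cells and 672 MA9 cells, and before it the shares were 4.83% and 62.9% at median depths of 3976 and 6611 UMIs over the shared genes. In T cell-like cells, which should lack the gene, the thinned share was 0 of 47 cells in HM (6.38% at the floor of 3 counts, with an exact upper limit of 7.55%) and 1.79% of 56 cells in MA9.

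The composition of the marrow differed as well. Clustering each library apart put 71.6% of HM cells (69.9% to 73.3%) and 34.2% of MA9 cells (33.2% to 35.2%) into neutrophil-like clusters. The 5 HM clusters of that name rest on 3 to 5 of 14 markers and the 5 MA9 clusters on 4 to 12. Promyelocyte-like cells made up 14.3% of HM cells (12.98% to 15.6%) and 15.8% of MA9 cells (14.99% to 16.5%). Names are given against the rest of the same library, and the clusters of this name were not alike in stage. Mpo stood at 772 CPM in the HM cluster, against 3888 and 4589 CPM in the MA9 clusters. S100a8 stood at 115863 CPM in the HM cluster, against 8577 and 5897 CPM in the MA9 clusters. Monocyte-like cells made up 8.06% of HM cells (7.07% to 9.14%) and 15.9% of MA9 cells (15.2% to 16.7%). Stem and progenitor-like cells, with Gata2, Cd34 and Sox4 among the leading genes beside the platelet gene Pf4 and the mast cell gene Cpa3, formed a cluster only in MA9, with 10.4% of its cells. In HM no cluster took that name, which sets no limit on single cells of the kind: at Leiden resolution 1.5 a promyelocyte-like HM cluster of 72 cells had 4 stem and progenitor markers up and Cd34 among its leading genes. Another 18.5% of MA9 cells fell into 3 unnamed clusters. In 2 of these, with 710 and 495 cells, S100a8 stood at 64264 and 61186 CPM and Camp at 34127 and 30956 CPM, so cells with granulocyte genes lie outside the neutrophil-like share of MA9. Erythroid-like cells were 3.52% of HM cells and 0.522% of MA9 cells, and T cell-like cells 2.54% and 0.766%, although immunoglobulin genes also led the T cell-like cluster of HM. The HM erythroid-like cluster also held S100a8 at 90775 CPM and Retnlg at 22168 CPM, against 14801 and 349 CPM in that of MA9. Summed over whole libraries, erythroid markers stood at 296 CPM in HM against 1045 CPM in MA9, the opposite order to the shares. Mast cell and basophil-like (2.08%), macrophage-like (1.22%) and B cell-like cells (0.615%) formed clusters only in MA9. Finer clusters lowered the neutrophil-like share of HM to 49.2% at Leiden resolution 1.5, where that of MA9 was 32.6%. The filter removed most HM barcodes and left out 5204 of them for under 500 genes, so these are shares of kept cells, not of the marrow.

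**Figure D2:**
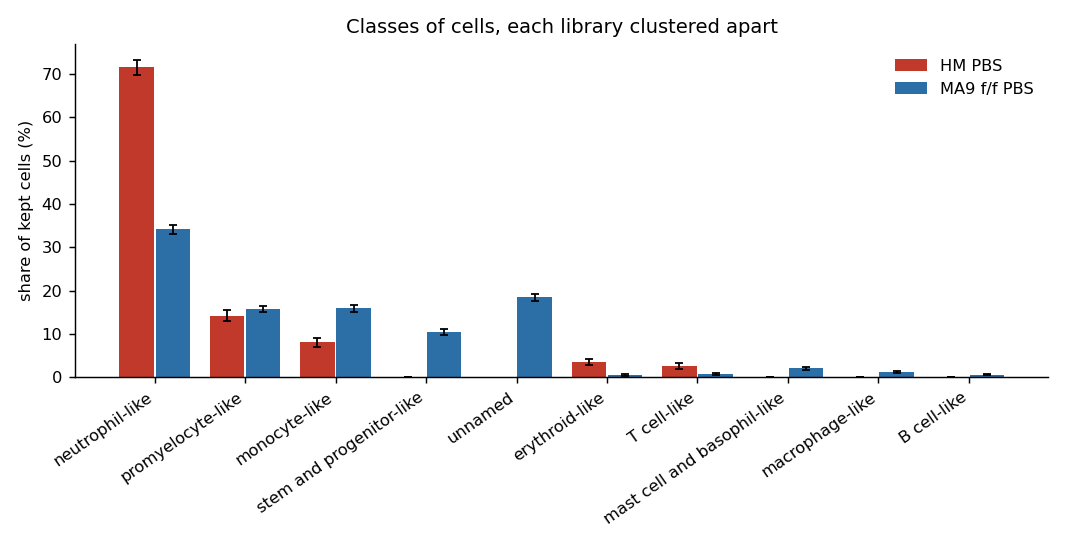
Share of kept cells (%) in each class of the HM PBS (red) and MA9 f/f PBS (blue) libraries, with exact binomial 95% intervals that cover counting error only. The neutrophil-like bar of HM reaches 71.6%, against 34.2% in MA9, and the stem and progenitor-like and unnamed bars exist only in MA9.

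Across genes, 5949 reached 20 CPM in either PBS library. By 2-fold or more, 530 of these (8.91%) were higher and 1832 (30.8%) lower in HM. The sums of the libraries were uneven: S100a8 and S100a9, the subunits of the alarm protein calprotectin, took 21.98% of HM UMIs against 8.37% of MA9 UMIs. The 9 genes at 1% or more of either library took 36.7% in HM and 14.1% in MA9, and 1 gene model known only by a code took 5.06% and 0.502%. The median log2 ratio of all compared genes was -0.62, and scaling by the median of ratios moved every ratio up by 0.62. Under that scaling 984 genes were higher and 568 lower by 2-fold or more, so the share of higher genes among those past 2-fold was 63.4%, against 22.4% by CPM. Values below are by CPM, and lists are set against the all-gene median. In summed libraries, fewer cells of a type and less RNA per cell cannot be told apart.

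**Figure D3:**
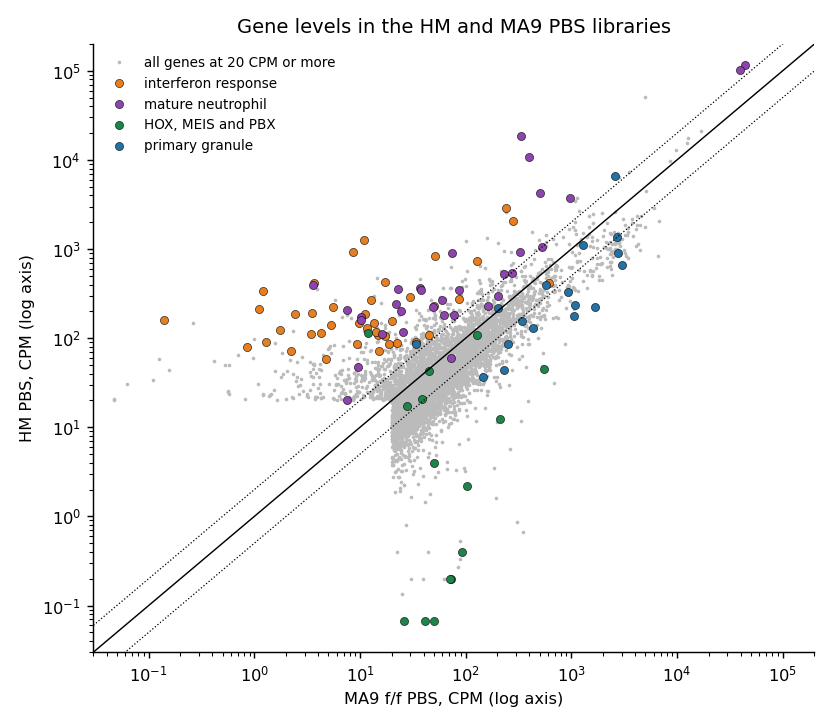
Level of each gene at 20 CPM or more in the HM PBS library (vertical) against the MA9 f/f PBS library (horizontal), in CPM on log axes, with members of 4 gene lists coloured and dotted lines at 2-fold. Interferon response genes lie above the diagonal at up to 10.15 log2 units, except Ly6e at -0.53, and Hoxa genes lie far below it.

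Interferon-stimulated genes had the highest median ratio of the 34 pathway lists. Of 46 listed, 43 reached 5 CPM, and 41 of those were higher in HM by 2-fold or more, with none lower by that much. The shares over all genes at 5 CPM were 8.37% higher and 34.7% lower. The median log2 ratio of the list was 3.63. Isg15, a ubiquitin-like protein conjugated in antiviral states (chromosome 4, 156199424 to 156200818, minus strand), stood at 918 CPM in HM PBS and 104 CPM in HM AraC + Dox. It stood at 8.67 and 8.66 CPM in the MA9 libraries labelled f/f with PBS and with AraC + Dox, and at 12.6 and 10.0 CPM in those labelled Δ/Δ. The HM libraries lay above all 4 MA9 libraries, as they did for 11.9% of all genes at 20 CPM, and the HM PBS library was far above the HM AraC + Dox library. Between the PBS libraries the log2 ratio was 6.73 (6.61 to 6.85).

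The Ifit genes, whose proteins bind foreign RNA, had the largest ratios of the list. Ifit3 stood at 336 CPM in HM PBS and 1.21 CPM in MA9 f/f PBS, a log2 ratio of 8.12 (7.79 to 8.46). Ifit1 stood at 212 against 1.12 CPM, a log2 ratio of 7.57 (7.23 to 7.93). The near-identical copy Ifit3b stood at 159 against 0.140 CPM, and its reads and those of Ifit3 are uncertain in how they were split. In HM AraC + Dox, Ifit3 and Ifit1 stood at 24.9 and 31.9 CPM, and the 3 other MA9 libraries held 1.52 to 5.11 CPM of Ifit3 and 1.58 to 7.02 CPM of Ifit1. Rsad2, which encodes the antiviral enzyme viperin, stood at 416 CPM in HM PBS against 3.67 CPM in MA9 f/f PBS. Slfn4, a schlafen gene of myeloid cells, stood at 1266 against 11.03 CPM, and Gbp2, a guanylate-binding GTPase, at 80.5 against 0.854 CPM. Among the most abundant members, Ifitm3, a membrane protein that blocks viral entry, stood at 2869 CPM in HM PBS against 239 CPM in MA9 f/f PBS. Both HM libraries lay above all 4 MA9 libraries for 31 of the 43 members, against 10.5% of all genes at 5 CPM. The only member lower in HM was Ly6e, a surface protein, at 420 against 609 CPM; it was named after its values were seen. By the median of ratios its log2 ratio is 0.08, and within neutrophil-like cells it is 3.34 by CPM.

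Promoters of these genes are shown because the list is known for a shared element, the interferon-stimulated response element that the factor ISGF3 and interferon regulatory factors bind. Of the 43 members, 35 had a promoter in the RefSeq table (GRCm38.p6, 250 bases before to 50 after each start). The letters GAAA, any 2 bases and GAAA again, searched on both strands with overlapping matches counted, were present for 19 of the 35 genes (54.3%). They were present for 315 of 7365 genes at 5 CPM or more with a promoter (4.28%) and for 1079 of 27025 genes in the whole table (3.99%). Windows of 30 bases around a match follow for 5 genes of high ratio, written 5′ to 3′ along the gene's strand, with the matching letters in capitals.
Ifit3 (chr19:34583363-34583392, plus strand): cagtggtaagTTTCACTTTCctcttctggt
Ifit1 (chr19:34640775-34640804, plus strand): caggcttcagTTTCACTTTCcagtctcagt
Rsad2 (chr12:26456553-26456582, minus strand): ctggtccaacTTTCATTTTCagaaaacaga
Isg15 (chr4:156200877-156200906, minus strand): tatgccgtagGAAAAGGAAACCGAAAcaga
Gbp2 (chr3:142620594-142620623, plus strand): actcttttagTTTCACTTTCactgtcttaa
The window of Ifit3b (chr19:34607759-34607788, plus strand) has the same 30 letters as that of Ifit3. Isg15 holds overlapping matches, and the 4 other windows hold the element on the opposite strand. A match describes the letters only, and binding was not measured.

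The interferon genes were higher in each class compared. Within neutrophil-like cells 42 of 42 measured members were at least 2-fold higher in HM, with a median log2 ratio of 5.02, where 10.2% of all genes at 5 CPM were higher and 47.5% lower. Ifit3 stood there at 537 CPM in HM against 1 UMI (0.0589 CPM) in MA9, a log2 ratio of 13.16 (10.68 to 18.46). Within promyelocyte-like cells 33 of 41 were higher and 2 lower, with a median of 4.07, and within monocyte-like cells 38 of 44 were higher and none lower, with a median of 2.48. The all-gene shares were 8.59% higher and 37.6% lower in promyelocyte-like cells, and 8.62% higher and 14.4% lower in monocyte-like cells. The promyelocyte-like clusters of HM and MA9 were of unlike stage, as given above. T cell-like cells showed it too: with cells thinned to 2000 UMIs, 63.8% of 47 HM cells and 1.79% of 56 MA9 cells had an Isg15 UMI, where the neutrophil-like shares were 65.9% of 1728 and 2.23% of 2736. Before thinning the T cell-like shares were 68.6% and 3.03%, at median depths of 2570 and 3098.5 UMIs. S100a8 stood at 19373 CPM in those HM T cell-like cells against 1746 CPM in those of MA9. The part of free RNA in the T cell-like values was not tested.

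The HM cells were not uniform. A cluster of 285 HM neutrophil-like cells was led by Ifit1bl1, Gbp2 and Ifit2 and held 44921 CPM summed over the list, with Isg15 at 4395 CPM. The 4 other HM neutrophil-like clusters held 8511 to 25342 CPM summed, and the 5 MA9 neutrophil-like clusters 462 to 4414 CPM. Clusters of like stage were also set side by side, chosen after the clusters were seen. In HM these were the 4 neutrophil-like clusters with S phase sums of 160 to 184 CPM and mature neutrophil sums of 370369 to 410459 CPM. In MA9 they were clusters of 408 and 700 cells with S phase sums of 166 and 241 CPM and mature neutrophil sums of 314615 and 313671 CPM. Isg15 stood at 607 to 4395 CPM in these HM clusters, against 24.03 and 19.1 CPM in these MA9 clusters. Ifit3 stood at 137 to 2304 CPM in the HM clusters and had no UMI in the MA9 clusters. Hoxa9 stood at 1.02 to 6.52 CPM in the HM clusters against 134 and 113 CPM in the MA9 clusters, and Meis1 at 0 to 2.80 CPM against 125 and 119.97 CPM.

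**Figure D4:**
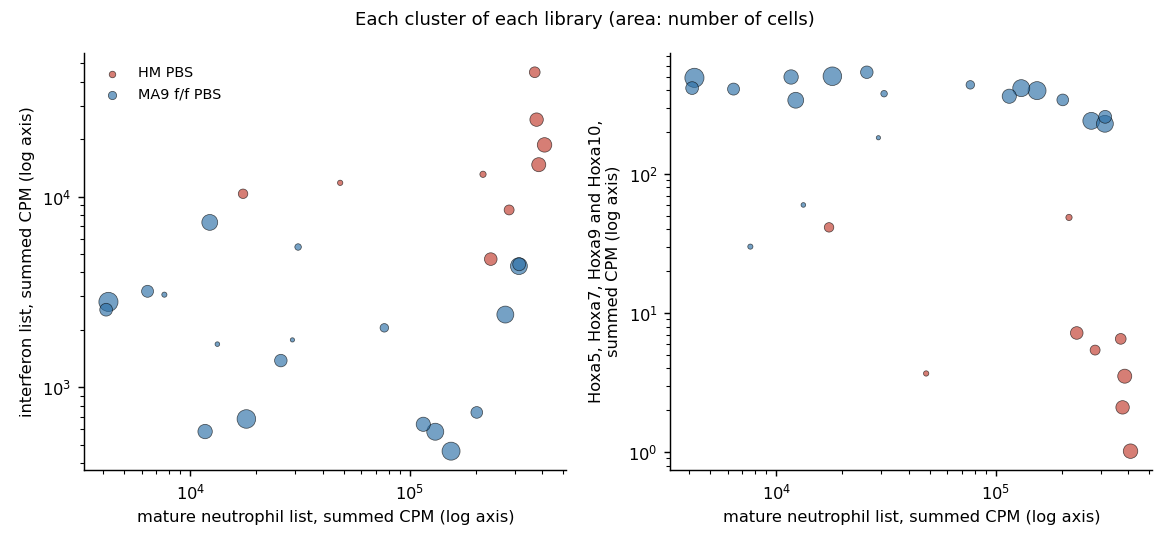
Each point is a cluster of the HM PBS (red) or MA9 f/f PBS (blue) library, with area by number of cells; the horizontal axis is the summed CPM of the mature neutrophil list and the vertical axes are the summed CPM of the interferon list (left) and of Hoxa5, Hoxa7, Hoxa9 and Hoxa10 (right), all log axes. At like levels of mature neutrophil genes, HM clusters lie above MA9 clusters on the left and below them on the right.

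Genes of mature neutrophils were higher in HM, both in the whole library and within neutrophil-like cells. All 32 listed genes reached 5 CPM, and 27 were higher and none lower by 2-fold or more, beside 8.37% and 34.7% of all genes. Their median log2 ratio was 2.21. Retnlg, a resistin-like secreted protein, stood at 18746 and 10313 CPM in HM PBS and HM AraC + Dox, against 334 CPM in MA9 f/f PBS and 41.2 to 337 CPM in the other MA9 libraries. S100a6, a calcium-binding protein, stood at 10652 CPM in HM PBS against 396 CPM in MA9 f/f PBS, and Il1b, the interleukin 1 beta gene, at 206 against 7.52 CPM. Ifitm1, of the same family as Ifitm3, stood at 391 against 3.60 CPM. Both HM libraries lay above all 4 MA9 libraries for 30 of the 32, against 10.5% of all genes at 5 CPM. Within neutrophil-like cells 27 of 32 were again at least 2-fold higher and 1 lower, with a median of 1.77, beside 10.2% and 47.5% of all genes. There Retnlg stood at 31072 CPM in HM against 1110 CPM in MA9, while S100a8 was within 2-fold, at 157328 against 112770 CPM. Both genes are among the markers used to name that class. The class differed in its mix of stages: Retnlg stood at 24239 to 47869 CPM in the 4 HM clusters with the lowest S phase sums and 2630 CPM in the fifth, against 11461 and 2333 CPM in the MA9 clusters of like stage and 5.82 to 43.1 CPM in the other 3 MA9 neutrophil-like clusters. S phase genes moved with this: all 28 were at least 2-fold lower in HM neutrophil-like cells, with a summed level of 229 CPM against 2889 CPM.

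Granule genes differed in both directions, and by class. Of 18 primary granule genes 11 were at least 2-fold lower in HM and 2 higher, with a median log2 ratio of -1.54. In the whole libraries 34.7% of all genes at 5 CPM were lower and 8.37% higher by that much. Mpo, the myeloperoxidase gene, stood at 222 and 618 CPM in HM PBS and HM AraC + Dox, against 1658 CPM in MA9 f/f PBS and 1467 to 4375 CPM in the other MA9 libraries. Elane, neutrophil elastase, stood at 661 CPM in HM PBS against 3039 CPM in MA9 f/f PBS, and Ctsg, cathepsin G, at 234 against 1077 CPM. These 3 were also lower inside promyelocyte-like cells, with log2 ratios of -2.45, -1.51 and -2.58. They are among the markers used to name that class in each library. In that class 14 of 18 list members were lower, beside 37.6% of all genes. Of 27 secondary and tertiary granule genes 13 were at least 2-fold higher and 2 lower in the whole library, with a median of 0.45. In neutrophil-like cells 8 were higher and 7 lower, beside 10.2% and 47.5% of all genes there. Their median was -0.06 and their summed level 65179 CPM in HM against 95254 CPM in MA9. In the AraC + Dox pair 9 of the 27 were higher and 6 lower. Of the 5949 genes at 20 CPM in either PBS library, 432 were higher and 1445 lower in that pair. Mmp8, a collagenase, stood at 1242 against 101 CPM, and Mmp25, a membrane metalloproteinase, at 120 against 2.31 CPM. Olfm4, a granule glycoprotein of a subset of neutrophils, went the other way, at 19.8 against 385 CPM. The promyelocyte-like classes were not alike in stage: the HM cluster held 49169 CPM of Camp, a secondary granule peptide, and the 2 MA9 clusters 2071 and 1520 CPM.

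Inflammatory genes were higher in HM. Of 26 measured cytokines and chemokines 16 were at least 2-fold higher and 3 lower, beside 8.37% and 34.7% of all genes at 5 CPM. Their median log2 ratio was 1.52. Cxcl10, a chemokine for T cells, stood at 90.4 CPM in HM PBS against 1.29 CPM in MA9 f/f PBS, and Ccl2, a chemokine for monocytes, at 60.8 against 2.84 CPM. Cxcl2, a chemokine for neutrophils, stood at 343 against 37.7 CPM. Saa3, an acute phase protein, had one of the largest ratios of all genes, at 58.8 against 0.124 CPM and a log2 ratio of 8.89 (7.90 to 10.10), but it stood at 2.21 CPM in HM AraC + Dox against 3.03 CPM in MA9 f/f AraC + Dox. Acod1, which makes itaconate, stood at 55.8 and 53.4 CPM in the HM libraries against 0.419 to 1.02 CPM in the MA9 libraries. Prok2, a secreted chemotactic peptide, stood at 50.6 against 0.528 CPM between the PBS libraries. Socs3 and Socs1, feedback inhibitors of JAK-STAT signals, stood at 23.4 against 1.20 CPM and 34.2 against 7.04 CPM, and Pim1, a kinase induced by the same signals, at 371 against 36.8 CPM.

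Progenitor genes were lower in HM. Of 20 measured stem and progenitor genes 14 were at least 2-fold lower and 1 higher, beside 34.7% and 8.37% of all genes at 5 CPM. Their median log2 ratio was -2.25. Ikzf2, the transcription factor Helios, stood at 3.47 and 19.5 CPM in the HM libraries against 185 to 319 CPM in the MA9 libraries. Cdk6, a cell cycle kinase, stood at 48.5 against 532 CPM in the PBS libraries. Lmo2 stood at 62.7 against 342 CPM, and Myb at 58.6 against 317 CPM; both are transcription regulators of early blood cells. Cd34, a surface protein of progenitors, stood at 4.27 against 32.2 CPM in PBS, but at 25.1 against 5.39 CPM with AraC + Dox, and the list median of the AraC + Dox pair was 0.35. Within neutrophil-like cells 6 of 14 measured members were lower and 3 higher, beside 47.5% and 10.2% of all genes there. Their median was -0.67, above the all-gene median of -0.91 in that class. In promyelocyte-like cells, of unlike stage, 10 of 15 were lower and 2 higher, with a median of -2.25. All-gene shares there were 37.6% and 8.59%. In monocyte-like cells 10 of 19 were lower and 1 higher, with a median of -1.23, beside 14.4% and 8.62% of all genes. Among myeloid transcription factors, Gfi1, a repressor needed for neutrophil fate, stood at 6.48 against 86.4 CPM, and Cebpe, which drives the secondary granule stage, at 128 against 460 CPM. Only 4 of 20 listed factors were at least 2-fold lower and 2 higher, with a median of -0.19.

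**Figure D5:**
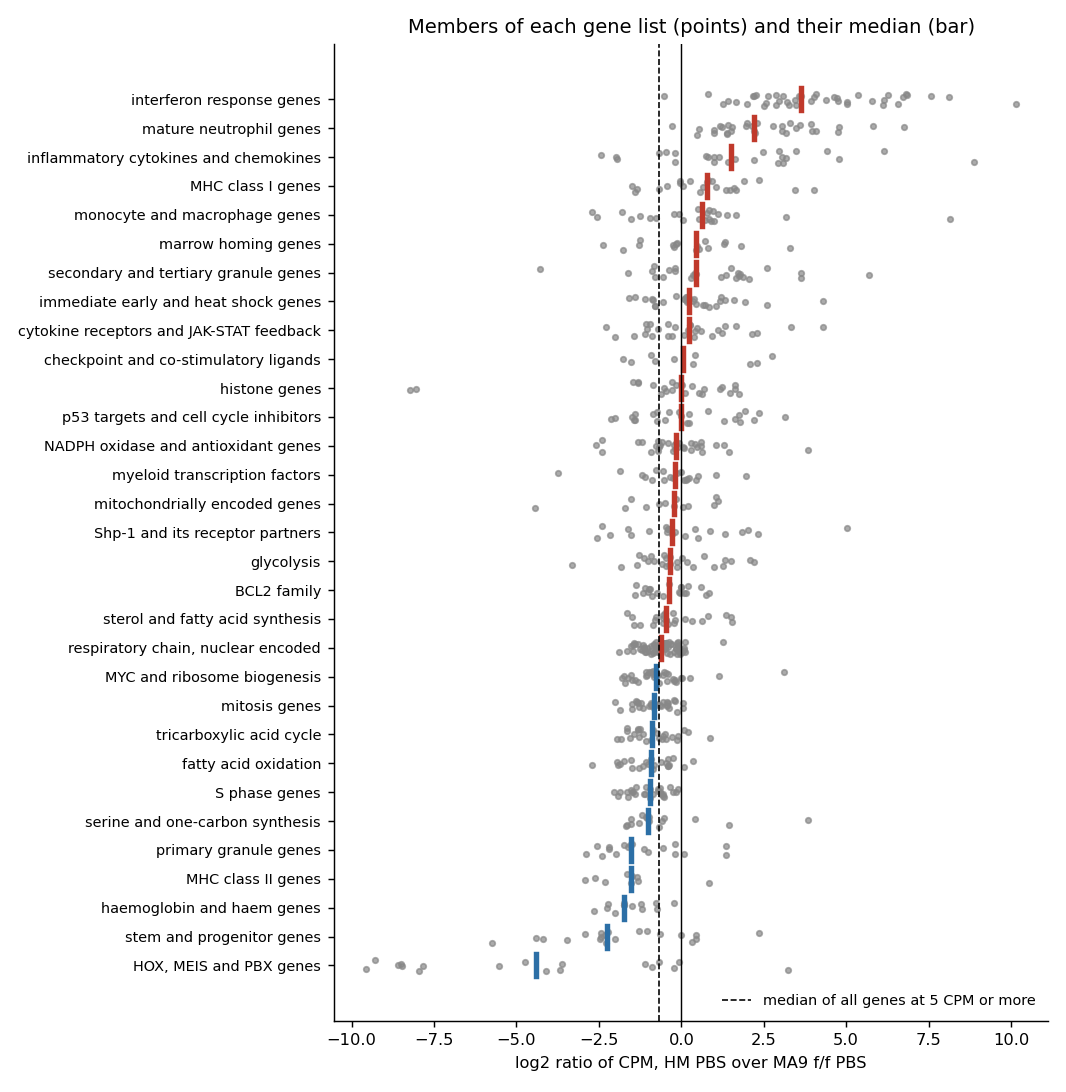
log2 ratio of CPM, HM PBS over MA9 f/f PBS, of each member at 5 CPM or more (grey points) of the lists with at least 9 such members, with list medians as bars, red above and blue below the median of all genes (dashed line, -0.69). Interferon response genes have the highest median, 3.63, and HOX, MEIS and PBX genes the lowest, -4.41.

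Receptors that recruit Shp-1 differed in both directions, while Ptpn6 itself differed little. Ptpn6 (chromosome 6, 124720707 to 124738714, minus strand) stood at 136 CPM in HM PBS and 114 CPM in HM AraC + Dox, against 188 CPM in MA9 f/f PBS. The log2 ratio of the PBS libraries was -0.46 (-0.53 to -0.40), and 0.15 by the median of ratios, so its direction depended on the scaling. In neutrophil-like cells it stood at 136 CPM in HM against 188 CPM in MA9, and in monocyte-like cells at 159 against 214 CPM. Ptpn6 goes against 2 labels of the other libraries, at 58.2 CPM in the MA9 AraC + Dox library labelled f/f and 173 CPM in the MA9 PBS library labelled Δ/Δ, so the pair with AraC + Dox may not be what its labels say. Of 21 measured members of the Shp-1 list 5 (23.8%) were at least 2-fold higher and 5 (23.8%) lower, with a median of -0.27. Over all genes at 5 CPM 8.37% were higher and 34.7% lower, with a median of -0.69, so the lower share of the list was under that of all genes. Lilrb4a, an inhibitory immunoglobulin-like receptor, stood at 476 CPM in HM PBS against 14.6 CPM in MA9 f/f PBS, but it shares a same-strand exon with a feature that is in the MA9 list alone. Pirb, another such receptor, stood at 365 against 72.1 CPM. Clec12a, an inhibitory lectin receptor of myeloid cells, stood at 179 against 1058 CPM, and Pecam1, an adhesion receptor, at 15.2 against 67.3 CPM. Pfkp, the platelet-type phosphofructokinase, stood at 36.8 against 32.4 CPM, a log2 ratio of 0.18 (0.05 to 0.32). It was 0.80 by the median of ratios, and -0.21 by CPM in the AraC + Dox pair.

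Growth and metabolism lists sat near the all-gene median in the whole libraries and varied by class. The median log2 ratio was -0.94 for 28 S phase genes, -0.84 for 31 mitosis genes, -0.77 for 32 MYC and ribosome biogenesis genes and -0.63 for 76 nuclear-encoded respiratory chain genes, against -0.69 for all genes. In neutrophil-like cells the same medians were -3.95, -1.54, -2.57 and -1.33, against -0.91 for all genes. In promyelocyte-like cells, which were not alike in stage between the libraries, they were -0.14, 0.28, -1.61 and -0.67, against -0.69 for all genes. In monocyte-like cells they were 0.30, -0.34, 0.73 and 0.55, against -0.18 for all genes. Monocyte-like cells of HM came from 1 cluster with a median of 11023 UMIs, those of MA9 from 3 clusters with a median of 6152 UMIs over the class. The licensing helicase genes Mcm5 and Mcm6 illustrate the split, at log2 ratios of -4.65 and -4.67 in neutrophil-like cells and -0.40 for both in monocyte-like cells. Slc7a11, the cystine importer, was higher in the whole libraries, at 139 against 9.77 CPM, as was Mxd1, an antagonist of MYC, at 626 against 72.8 CPM. Of 27 glycolysis genes 6 (22.2%) were at least 2-fold lower and 5 (18.5%) higher, beside 34.7% and 8.37% of all genes at 5 CPM. The glucose transporter Slc2a3 was among the higher ones, at 223 against 48.6 CPM.

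Within each class, counts past 2-fold differed. In neutrophil-like cells 604 of 5304 genes at 20 CPM (11.4%) were at least 2-fold higher and 2264 (42.7%) lower in HM. In promyelocyte-like cells, of unlike stage between the libraries, 498 of 6021 (8.27%) were higher and 2081 (34.6%) lower. In monocyte-like cells 497 of 6207 (8.01%) were higher and 739 (11.9%) lower, the fewest lower genes of the 3 classes. Of the 530 genes higher in the whole library, 427 were also at least 2-fold higher in neutrophil-like cells, which is 80.6% of these 530 and 70.7% of the 604. Of the 1832 lower genes, 1303 were also lower there, 71.1% of these 1832 and 57.6% of the 2264. Neutrophil-like cells are part of the whole library, with 8412894 of its 14974969 UMIs in HM, so part of both overlaps is built in. Genes named by size within neutrophil-like cells and not yet described include Ifi204 and Ifi208, DNA sensors of the interferon-inducible kind, at 308 and 34.4 CPM in HM against 0.530 and 0.0589 CPM in MA9. Oasl1, an oligoadenylate synthetase-like protein, stood at 181 against 0.589 CPM, and Prr5l, a partner of mTORC2, at 23.7 against 0.0589 CPM.

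Other genes of large ratio were low in HM. Penk, the proenkephalin precursor of opioid peptides, stood at 0.868 and 2.496 CPM in the HM libraries, against 308 and 504 CPM in the MA9 libraries labelled f/f and 95.3 and 82.4 CPM in those labelled Δ/Δ. Hebp1, a haem-binding protein, stood at 1.60 CPM in HM PBS against 195 CPM in MA9 f/f PBS, and Dsp, the desmosome protein desmoplakin, at 0.267 against 85.5 CPM. Epha7, an ephrin receptor, stood at 0.534 against 88.7 CPM, and Cdkn1c, the cell cycle inhibitor p57, at 0.401 against 44.1 CPM. Each of these 5 was below all 4 MA9 libraries in both HM libraries, as were 53.2% of all genes at 20 CPM. Pf4, a platelet chemokine, stood at 0.200 against 30.5 CPM, and Hmga1b, a chromatin protein gene, at 0.401 against 22.3 CPM. On the high side, Vcan, the matrix proteoglycan versican, stood at 44.4 CPM in HM PBS against 0.155 CPM in MA9 f/f PBS, a log2 ratio of 8.16 (7.27 to 9.23). In monocyte-like cells alone its log2 ratio was 9.20.

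Some large ratios go with the feature lists. Rnasek (chromosome 11, 70238124 to 70239842, minus strand) stood at 150 and 192 CPM in the HM libraries and at 0.0493 to 0.359 CPM in the MA9 libraries, and Mrpl53 at 30.7 and 44.6 CPM against 0.0621 to 0.184 CPM. Both share a same-strand exon, in GENCODE vM21, with a feature that is in the MA9 list alone. Of the 68 genes at least 16-fold higher in HM, 6 (8.82%) have such a partner, against 117 (1.97%) of all 5949 genes. Wdr89 stood at 0.668 and 2.25 CPM in the HM libraries and at 154 to 558 CPM in the MA9 libraries, with no such partner, and Hist1h2ap at 0.334 and 0.326 CPM against 15.9 to 489 CPM. For these 4 genes model and annotation cannot be told apart.

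The AraC + Dox libraries give a second HM and MA9 pair that shares no library with the first. Of the 530 genes at least 2-fold higher in HM with PBS, 336 were also higher with AraC + Dox, 5.65% of the 5949 genes compared, 63.4% of the 530 and 77.8% of the 432 higher in the second pair. Of the 1832 lower genes 878 were also lower there, 14.8% of the 5949, 47.9% of the 1832 and 60.8% of the 1445 lower in the second pair. Both HM libraries lay above all 4 MA9 libraries for 706 genes (11.9%) and below them for 3167 (53.2%). List medians of the second pair were -4.53 for the HOX, MEIS and PBX genes, 2.45 for mature neutrophil genes, 1.88 for interferon genes and 1.67 for inflammatory genes, beside -0.56 for all genes. Those of the first pair were -4.41, 2.21, 3.63 and 1.52, beside -0.69 for all genes. Feature list and barcode length go with the model in both pairs.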

How the data were processed

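Droplet 3′ single-cell libraries of mouse bone marrow were analysed, 1 library per group, with groups taken from the labels. The values deposited by the authors are UMI counts, whole numbers for each gene in each barcode, without normalisation. Cell Ranger 3.0.2 made the MA9 matrices, per the file headers, while the headers of the HM files give no program. The submitters' processing notes name Cell Ranger 3.0.2 and the mm10 build. Counts were summed over kept cells for symbols in both feature lists (14974969 UMIs in HM, 64383848 in MA9) and scaled to CPM. Fewer UMIs in HM give wider intervals. Log2 ratios are HM over MA9 with exact Clopper-Pearson intervals given the sum of both counts; a count of 0 was set to 3 counts. Ratio code was tested on simulated data. Each library was clustered apart (scanpy 1.11.5, 2000 variable genes without list genes that are not markers, 30 components, 15 neighbours, Leiden resolution 1, leidenalg 0.10.2). A cluster took the name of the class with the largest share of markers 2-fold higher at 20 CPM or more, if these were at least 3. It stayed unnamed where another class had more markers among the 10 leading genes, or where 3 times its median UMI count was under that of the library and no marker of its class was among those genes. Doublets were kept in the values given; removal by Scrublet rank (0.8% per 1000 cells) was an alternative, since the automatic caller marked 0.0363% of HM cells.

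Named genes were Hoxa9, Meis1, Ptpn6 and Pfkp, the 15 largest and 15 smallest ratios at 20 CPM whose interval excluded 0, the 10 largest and 10 smallest within neutrophil-like cells, and up to 6 members per list by size or level. Mitochondrial, ribosomal protein, haemoglobin, sex-linked, antigen receptor and code-only genes were not named by size. The members, lists and tests were chosen with earlier results of these data known. Coordinates come from GENCODE vM21 (GRCm38). Alternatives were other scalings, cell filters, expression limits, gene matching and cluster resolutions. Some genes are not reported here.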

Additional observations from a re-analysis of the deposited data

Results flagged for a closer look

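MHC class II genes, which present antigen to T cells, had opposite medians in the pairs compared under PBS and under AraC + Dox: a median log2 ratio, HM over MA9, of -1.54 with PBS and 1.16 with AraC + Dox over 9 members. The difference was not tested, and 1 library stands on each side. H2-Aa stood at 10.8 CPM in HM PBS against 31.3 CPM in MA9 f/f PBS, and at 167 CPM in HM AraC + Dox against 17.5 CPM in MA9 f/f AraC + Dox. Markers of other cells moved with it. The summed level of 6 plasma cell markers was 116 CPM in HM against 338 CPM in MA9 with PBS, and 735 against 255 CPM with AraC + Dox. That of 8 B cell markers was 18.4 against 68.5 CPM with PBS and 91.4 against 77.0 CPM with AraC + Dox. Macrophage markers stood at 100 against 177 CPM and 121 against 101 CPM. Dendritic markers, which include class II genes themselves, stood at 67.4 against 179 CPM and 778 against 104 CPM. Stem and progenitor markers changed order too, while T cell and erythroid markers did not. In MA9 f/f PBS, H2-Aa, H2-Eb1 and H2-Ab1 were among the leading genes of the macrophage-like cluster of 105 cells. Their part in the result was not tested. In all, 23 genes were at least 2-fold apart in opposite ways in the pairs, untested as well. Besides class II genes they include the progenitor genes Cd34 and Sox4, and the interferon-linked kinase gene Eif2ak2 at 89.1 against 33.8 CPM with PBS and 20.05 against 41.8 CPM with AraC + Dox; these were named after their values were seen.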

How the results depend on the processing

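Of the 32 named genes past 2-fold, all kept their sign and stayed past 2-fold under each of the 8 scalings, filters and averages tried. Most of these 32 were named for the size of their ratios in the same data, so this was nearly fixed in advance. Of 272 gene values over these settings, 64 lay outside the counting interval of the main value, 15 of them by the median of ratios. All 9 list medians past 2-fold kept their sign, with 72 values still past 2-fold and 9 under it. Of 305 values of all list medians, 46 moved by 1.5-fold or more, 34 of them by the median of ratios. Scaling and the expression limit changed the counts. By the median of ratios 984 genes were higher and 568 lower, 809 were apart the same way in the AraC + Dox pair, and 1158 were higher and 1410 lower in neutrophil-like cells. Without the genes at 1% of UMIs 943 were higher and 944 lower, and 1022 higher in neutrophil-like cells. At 5 CPM 3188 genes were lower, 2128 apart the same way in both pairs, 6090 ordered by model in the 6 libraries (3873 at 20 CPM) and 4025 lower in neutrophil-like cells. At 50 CPM these were 900, 628, 2024 and 1133, with 353 higher. The limit itself sets how many genes are compared; the cause of the scaling differences beyond the uneven totals was not tested. The neutrophil-like share of HM was 76.8% at most 5% mitochondrial UMIs, 64.1% at 1000 genes or more and 49.2% at a resolution of 1.5. That of MA9 was 32.3% at 1000 genes, 35.7% without doublets, and 35.5% and 32.6% at resolutions of 0.5 and 1.5. Shares and within-class counts were not run at 20% mitochondrial UMIs or without a filter, because added cells were not clustered. No paired analysis was possible because each group has 1 library and the labels give no replicate numbers. Depth limits genes with few UMIs in HM, where the total is smaller.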
